A study of Homo sapiens with 6 samples.

Results

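The core spliceosome genes examined here were the 51 genes of the count table whose symbols follow the naming of the small nuclear ribonucleoprotein (snRNP) and splicing factor families SNRP, SF3A, SF3B, PRPF, LSM, U2AF1 and U2AF2. They were taken from 61541 annotated genes, after 71 names of the pseudogene form and 4 names with a hyphen had been set aside. H9 is a human T-cell lymphoma line, labelled wild type. It was treated with vehicle (DMSO) in 3 libraries and with AZD4573, a selective inhibitor of the kinase CDK9, in 3 others. The sample labels give 4 h for the AZD4573 libraries and no time for the DMSO libraries. The study's legend for the RNA-seq of H9 cells likewise gives 50 nM for 4 h, while its discussion speaks of a longer exposure. All libraries came from the same line, so that each difference below describes this line only, and the labels do not say whether libraries came from separate cultures. The p-values therefore measure the spread between these libraries, which may be technical.

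The spliceosome removes introns from pre-mRNA. Its U1 snRNP recognizes the start of an intron and its U2 snRNP, together with U2AF and the SF3a and SF3b complexes, the branch site near the intron's end. The U4/U6.U5 tri-snRNP then joins and is remodelled into the catalytic machine with the help of the Prp19 complex. U1, U2, U4 and U5 each carry a ring of Sm proteins, whereas U6 carries the related ring LSm2 to LSm8. CDK9 phosphorylates RNA polymerase II (RNAP2) and its pausing factors, which releases paused RNAP2 into elongation. The comparison asks which mRNAs of this machinery changed in abundance when that kinase was inhibited.

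Total counts ranged from 70367303 to 76571157 with DMSO and from 52101868 to 63795185 with AZD4573. Every one of the 51 genes was detected in each library, with between 194 and 60191 counts, and all 51 passed the filter on low counts. Of 15 T-cell markers, 14 reached 1 CPM (counts per 1000000 counts of the library) in every library. CD2 was the exception, with at most 0.170 CPM. The summed T-cell markers stood at 2222 to 2246 CPM with DMSO and at 2619 to 2666 CPM with AZD4573. Of 6 pluripotency markers, NANOG and DPPA4 had 0 counts in every library, SOX2, LIN28A and TDGF1 stayed at or under 0.172 CPM, and POU5F1 was at 1.11 to 1.54 CPM with DMSO and at 1.73 to 2.21 CPM with AZD4573. The B-cell gene CD79A and the epithelial gene EPCAM were present at 57.2 to 94.2 and 126 to 171 CPM. The part of these cell markers in the results was not tested. Fewer cells of a kind and less RNA per cell cannot be told apart in bulk RNA.

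The core spliceosome mRNAs did not move as 1 block upon AZD4573 treatment. Of the 51 genes, 22 fell and 17 rose at an adjusted p under 0.05 by the quasi-likelihood test of edgeR, adjusted across the 17678 genes tested by the Benjamini-Hochberg method, and 12 did not pass. Among all genes tested, 37.4% fell and 37.3% rose by the same rule, against 43.1% and 33.3% of the core spliceosome genes. With a fold change of at least 1.5 added to the rule, 12 fell and 3 rose (background 23.7% and 22.7%). Thus 23.5% of the core spliceosome genes fell by this margin, a share near the background, and 5.88% rose by it. Of the 12 falls, 4 were among the 6 LSm genes outside the U6 ring, which the naming brings into the 51. This background is not matched for level: the median with DMSO was 122 CPM for the 51 genes and 12.1 CPM for all genes tested. The groups did not overlap for 22 lower and 17 higher genes, where 38.7% and 39.0% of all genes were separated downwards and upwards. The median log2 fold change of the 51 genes was -0.03 (interquartile range -0.43 to 0.18), beside 0.03 over all genes tested (-0.59 to 0.58).

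The falls past 1.5-fold were in proteins of the tri-snRNP and its activation (PRPF4, PRPF38B, PRPF3, PRPF38A, PRPF4B), in the second-step factor PRPF18, in the small U2AF subunits U2AF1 (under 1.5-fold once the reads of its copy U2AF1L5 are added) and U2AF1L4, and in LSm proteins that work outside the spliceosome (LSM12, LSM11, LSM10, LSM1). In the Sm ring, the U1 and U2 proteins, SF3a, SF3b and the U6 ring, SNRPN and LSM4 were the genes past 1.5-fold, and both rose. These directions are relative to the other mRNAs of a library. The 13 mRNAs of the mitochondrial genome, transcribed by a different polymerase than RNAP2, took 3.04 to 3.22% of the counts with DMSO and 4.67 to 4.98% with AZD4573. Scaled to them, the median of all genes shifted by -0.74 on the log2 scale, and 48 of the core spliceosome genes were lower and 1 (PRPF40B) was higher. This scaling moved the genes down by about the same amount. Falls below are therefore falls under both scalings by construction, which adds no support to them. Each rise below but that of PRPF40B is a rise relative to other mRNAs that turned negative when scaled to the mitochondrial mRNAs.

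**Figure D1:**
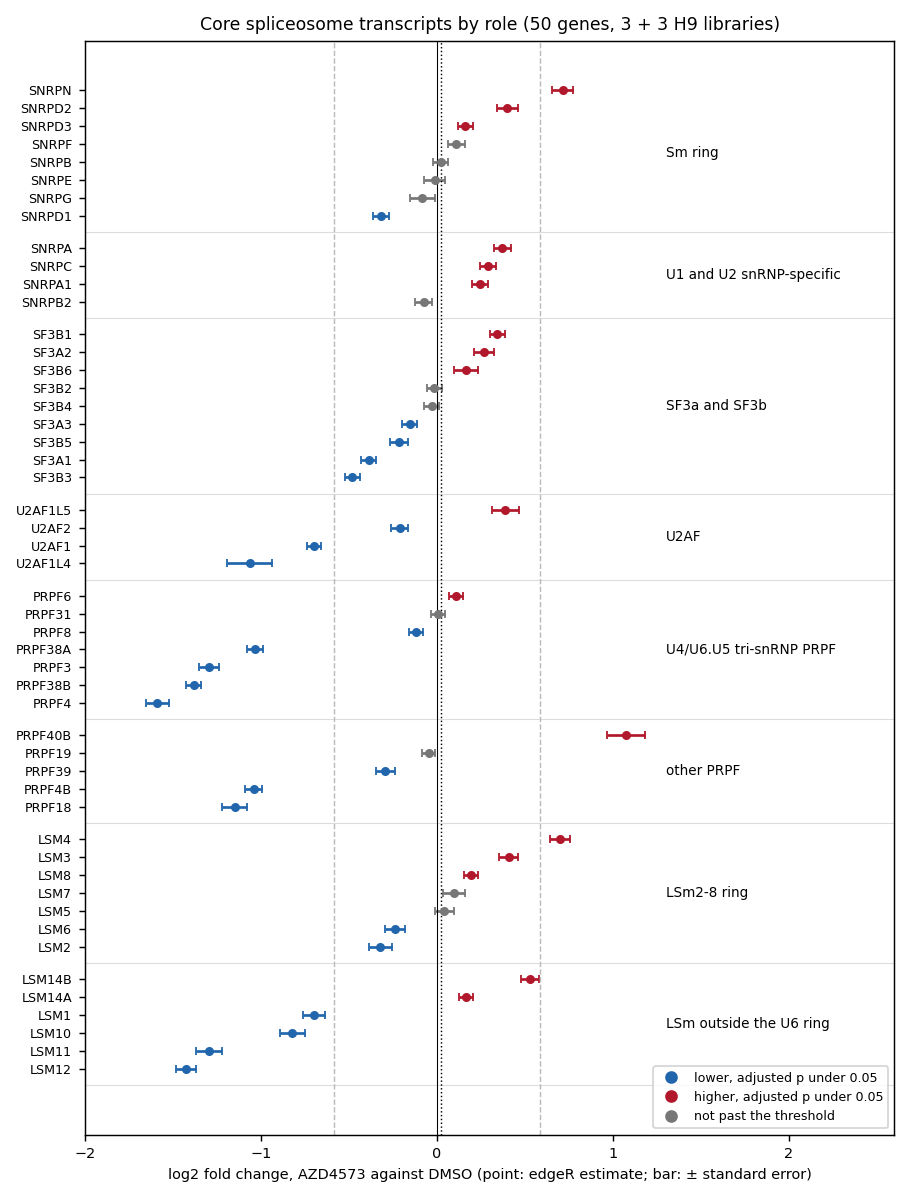
Log2 fold change of 50 core spliceosome genes, AZD4573 against DMSO, grouped by role (vertical axis: genes; horizontal axis: log2 scale). Points are edgeR estimates from 3 libraries a group, with standard errors derived from the F statistic of the test. The dashed lines mark a fold change of 1.5 and the dotted line the median of all genes tested. The 12 falls past 1.5-fold lie in the PRPF, U2AF and outer LSm groups, down to -1.59 for PRPF4.

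Promoter sequences are shown for both LSm proteins of the U7 snRNP (LSM11 and LSM10, which fell together), for LSM14B and SNRPC, which rose, and for PRPF6. SNRPC and PRPF6 each hold 2 matches to CCGGAAG, which in SNRPC overlap on opposite strands. They were chosen after the values were seen, among genes whose 250 bases before the RefSeq start share at most 30 bases with an annotated exon. Each is written 5′ to 3′ on the gene's strand (GRCh38.p14, RefSeq starts), with matches to the searched motifs in capitals in either orientation. These were the TATA box TATAAA, the CCAAT box, the GC box GGGCGG, the ETS core CCGGAAG, the E-box CACGTG and the CRE TGACGTCA.
LSM11, chr5:157743462-157743711, plus strand: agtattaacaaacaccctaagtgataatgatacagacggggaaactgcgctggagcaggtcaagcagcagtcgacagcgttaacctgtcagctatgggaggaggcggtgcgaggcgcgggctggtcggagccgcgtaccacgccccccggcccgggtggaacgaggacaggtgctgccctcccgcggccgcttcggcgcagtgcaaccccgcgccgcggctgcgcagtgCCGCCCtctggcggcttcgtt
LSM10, chr1:36397909-36398158, minus strand: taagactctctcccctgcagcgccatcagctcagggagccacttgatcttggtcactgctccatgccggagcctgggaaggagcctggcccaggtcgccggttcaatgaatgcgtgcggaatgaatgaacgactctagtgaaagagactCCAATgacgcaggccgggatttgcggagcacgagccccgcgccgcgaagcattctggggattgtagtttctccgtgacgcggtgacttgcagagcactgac
LSM14B, chr20:62122225-62122474, plus strand: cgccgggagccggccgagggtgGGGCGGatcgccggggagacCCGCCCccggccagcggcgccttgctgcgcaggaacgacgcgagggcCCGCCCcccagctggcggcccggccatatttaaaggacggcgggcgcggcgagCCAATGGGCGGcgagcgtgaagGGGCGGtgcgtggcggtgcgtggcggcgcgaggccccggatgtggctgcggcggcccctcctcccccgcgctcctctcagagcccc
SNRPC, chr6:34757255-34757504, plus strand: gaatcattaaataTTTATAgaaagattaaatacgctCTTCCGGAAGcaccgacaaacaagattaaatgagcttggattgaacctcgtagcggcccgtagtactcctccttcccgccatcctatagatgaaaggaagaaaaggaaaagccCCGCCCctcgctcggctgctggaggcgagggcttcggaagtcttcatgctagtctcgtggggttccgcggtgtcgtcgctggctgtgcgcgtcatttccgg
PRPF6, chr20:63980882-63981131, plus strand: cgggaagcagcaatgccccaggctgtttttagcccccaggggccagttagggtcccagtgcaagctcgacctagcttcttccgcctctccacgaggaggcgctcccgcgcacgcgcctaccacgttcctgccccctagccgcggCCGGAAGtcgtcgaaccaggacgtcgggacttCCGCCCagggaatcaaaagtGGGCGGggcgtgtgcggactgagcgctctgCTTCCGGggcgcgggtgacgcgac

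The promoter table matched 41 of the 51 genes by symbol, over windows of 300 bases (250 before and 50 after the start). CCGGAAG occurred in 18 of the 41 windows (43.9%), against 18.8% of the 11422 windows of genes tested and 10.7% of all 27305 windows. It was found in 4 of the 15 windows of genes that fell, in 7 of the 15 of genes that rose and in 7 of the 11 of genes that did not pass. TATAAA occurred in 1 window, that of SNRPC, and CACGTG in 1. GGGCGG was in 61.0% of the 41 windows, against 68.0% of those of genes tested. Such matches are letters in a window and no evidence of binding.

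Among the PRPF genes grouped here with the tri-snRNP and its activation, 5 of 7 fell and 1 rose (background 37.4% lower and 37.3% higher). Proteins of the tri-snRNP named outside the PRPF family moved both ways, as given below. PRPF4 (ENSG00000136875, chr9:113275642-113294009 of GRCh38, 14 exons in its canonical transcript), which binds U4/U6 together with PRPF3, stood at 107, 108 and 105 CPM with DMSO, normalized by TMM, and at 39.6, 32.7 and 34.2 CPM with AZD4573. Every AZD4573 library was well under every DMSO library. The log2 fold change was -1.59 ± 0.0641 (SE, adjusted p = 1.7e-10, edgeR's quasi-likelihood test), the largest fall among the 51 genes, and 5.65% of all genes tested fell as far or farther. PRPF3 (ENSG00000117360, chr1:150321479-150353233), its partner, stood at 68.0, 71.8 and 73.4 CPM with DMSO and at 29.6, 30.4 and 27.0 CPM with AZD4573. Its groups were as clearly apart, with a log2 fold change of -1.29 ± 0.0573 (SE, adjusted p = 3.5e-10, same test).

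PRPF38B and PRPF38A, a pair of related proteins of which PRPF38A takes part in spliceosome activation, fell together. PRPF38B (ENSG00000134186, chr1:108692310-108702928) was at 221, 233 and 230 CPM with DMSO and at 90.4, 85.0 and 87.1 CPM with AZD4573. PRPF38A (ENSG00000134748, chr1:52404602-52420836) was at 127, 122 and 125 CPM with DMSO and at 63.0, 58.7 and 61.3 CPM with AZD4573. Neither gene's groups overlapped, and the log2 fold changes were -1.38 (adjusted p = 2.8e-11, edgeR's quasi-likelihood test) and -1.03 (adjusted p = 3.3e-10). The counts of PRPF38B per 100 of PRPF38A dropped from 183 ± 8.69 to 143 ± 1.38 (SD, n = 3).

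Of the PRPF proteins of the tri-snRNP, PRPF8, PRPF31 and PRPF6 moved little. PRPF8 (ENSG00000174231, chr17:1650629-1684867), which holds the catalytic centre and was the most abundant of the 51 mRNAs by CPM, stood at 767, 790 and 817 CPM with DMSO and at 721, 746 and 719 CPM with AZD4573. Its groups did not overlap, yet the gap was narrow, with a log2 fold change of -0.12 ± 0.0417 (SE, adjusted p = 0.020, edgeR's quasi-likelihood test), and the call was lost without DMSO replicate 3 (adjusted p = 0.0554) or AZD4573 replicate 3 (adjusted p = 0.0621). PRPF31, which binds U4, had a log2 fold change of 0.01 (adjusted p = 0.846), with 837 of its exon bases shared with TFPT and PRPF31-AS1 on the opposite strand. PRPF6, a bridge between U5 and U4/U6, had 0.11 (adjusted p = 0.0289) and was no longer past the threshold without DMSO replicate 2 (adjusted p = 0.114), DMSO replicate 3 (0.148), AZD4573 replicate 2 (0.154) or AZD4573 replicate 3 (0.0666). Measured within libraries, PRPF4 made up 13.9, 13.7 and 12.8 counts per 100 of PRPF8 with DMSO and 5.49, 4.38 and 4.76 with AZD4573. This ratio needs no scaling between libraries and dropped 2.77-fold.

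**Figure D2:**
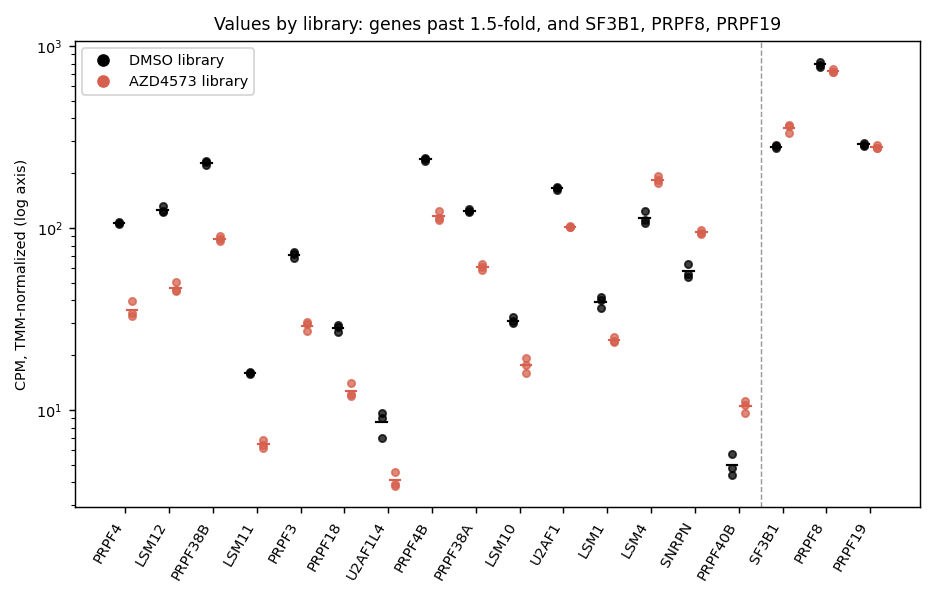
TMM-normalized CPM (vertical log axis) in each of the 3 DMSO and 3 AZD4573 libraries for the 15 genes past 1.5-fold, ordered by log2 fold change, and for SF3B1, PRPF8 and PRPF19 right of the dashed line. Points are libraries and short bars group means. In each of the 15 genes the groups are apart, from PRPF4 (lower) to PRPF40B (higher), while the groups of PRPF19 overlap.

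Of the 6 other PRPF genes, 3 fell and 1 rose (background 37.4% and 37.3%). PRPF4B (ENSG00000112739, chr6:4021267-4064983), a kinase that phosphorylates tri-snRNP proteins, was at 238, 242 and 233 CPM with DMSO and at 123, 114 and 110 CPM with AZD4573. PRPF18 (ENSG00000165630, chr10:13586939-13668445), which acts in the second catalytic step, was at 29.2, 28.6 and 26.7 CPM with DMSO and at 14.0, 12.2 and 11.98 CPM with AZD4573. The AZD4573 libraries of both were below all DMSO libraries, with log2 fold changes of -1.04 (adjusted p = 4.2e-10, edgeR's quasi-likelihood test) and -1.15 (adjusted p = 7.8e-09). PRPF18 shares 1949 of its 12262 merged exon bases with genes on the opposite strand (FRMD4A and RPL6P24). PRPF39, a U1-associated protein, fell by 0.29 on the log2 scale (adjusted p = 0.000259).

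PRPF19 (ENSG00000110107, chr11:60890547-60906585), the ubiquitin ligase at the heart of the Prp19 complex, stood at 295, 286 and 283 CPM with DMSO and at 277, 286 and 274 CPM with AZD4573. These groups overlapped, and the log2 fold change of -0.05 did not pass (adjusted p = 0.295, edgeR's quasi-likelihood test). PRPF40B (ENSG00000110844, chr12:49568218-49644666), a U1-associated protein, was the rarest of the 51 mRNAs with DMSO, at 4.40, 4.78 and 5.73 CPM, and reached 11.1, 10.7 and 9.60 CPM with AZD4573. It rose by 1.07 ± 0.110 on the log2 scale (SE, adjusted p = 9.5e-07), the largest rise of the 51. However, 4602 of its 9444 merged exon bases lie in exons of FMNL3 and FAM186B on the opposite strand, so that its counts may hold reads of those genes.

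The small subunit of U2AF, which reads the end of the intron, fell more than the large one. U2AF1 (ENSG00000160201, chr21:43092956-43107570) stood at 161, 168 and 166 CPM with DMSO and at 102, 103 and 101 CPM with AZD4573. U2AF2, the large subunit that binds the polypyrimidine tract, stood at 354, 388 and 387 CPM with DMSO and at 316, 334 and 325 CPM with AZD4573. Both were lower in every AZD4573 library, by -0.70 (adjusted p = 3.4e-09, edgeR's quasi-likelihood test) and -0.21 (adjusted p = 0.000878) on the log2 scale, and U2AF1 dropped from 43.9 ± 1.41 to 31.4 ± 0.680 counts per 100 of U2AF2 (SD, n = 3). That ratio leaves out the reads assigned to the copy U2AF1L5, described next, and was not computed with both summed.

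U2AF1 has a near-identical copy, U2AF1L5 (ENSG00000275895, chr21:6484623-6499248, which the annotation classes as an artifact), and RSEM divides the reads between them by estimate. U2AF1L5 was listed at 21.7, 18.4 and 21.6 CPM with DMSO and at 29.0, 26.7 and 25.2 CPM with AZD4573, a log2 fold change of 0.39 (adjusted p = 0.000413, edgeR's quasi-likelihood test) and thus opposite in sign to U2AF1. Its value per 100 counts of U2AF1 went from 12.5 ± 1.33 to 26.5 ± 1.83 (SD, n = 3), so the direction of the copy by itself is uncertain. With the counts of both summed, an alternative chosen after the values were seen, the log2 fold change was -0.53 (adjusted p = 4.3e-08, edgeR), which is under 1.5-fold, so that 11 instead of 12 genes fell by that margin. U2AF1L4, a shorter relative, was at 7.05, 9.08 and 9.64 CPM with DMSO and at 3.81, 3.89 and 4.59 CPM with AZD4573, a fall of 1.06 (adjusted p = 5.2e-06). It shares 713 of its 2875 merged exon bases with a gene on the same strand.

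The SF3a and SF3b complexes, which hold the branch site in the U2 snRNP, had 4 of 9 genes lower and 3 higher, shares near the background of 37.4% and 37.3%, and none past 1.5-fold. SF3B1 (ENSG00000115524, chr2:197388515-197435079), the subunit that clasps the branch helix, stood at 273, 284 and 282 CPM with DMSO and at 335, 369 and 362 CPM with AZD4573. All AZD4573 libraries were above all DMSO libraries, with a log2 fold change of 0.34 ± 0.0448 (SE, adjusted p = 1.0e-05, edgeR's quasi-likelihood test). SF3B3, a scaffold subunit of the same complex, moved the other way, from 180 ± 0.512 CPM to 129 ± 4.75 CPM (SD, n = 3), or by -0.48 on the log2 scale (adjusted p = 1.8e-07). SF3A1 fell by 0.39, SF3B5 by 0.21 and SF3A3 by 0.15 on the log2 scale, whereas SF3A2 rose by 0.27. SF3B6, the subunit at the branch adenosine, had a log2 fold change of 0.17 (adjusted p = 0.0376) with overlapping groups, and its call was lost without DMSO replicate 2 (adjusted p = 0.187), DMSO replicate 3 (0.111), AZD4573 replicate 1 (0.111) or AZD4573 replicate 3 (0.198). SF3B2 and SF3B4 had log2 fold changes of -0.01 and -0.03 and did not pass.

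The proteins specific to the U1 and U2 snRNPs were 4 genes, of which 3 rose and 0 fell (background 37.3% and 37.4%), whereas all 4 were lower when scaled to the mitochondrial mRNAs. SNRPA, the A protein of U1, stood at 116 CPM in each of the 3 DMSO libraries and at 142, 150 and 159 CPM with AZD4573. SNRPC, a U1 protein that stabilizes pairing at the start of the intron, stood at 118, 107 and 107 CPM with DMSO and at 135, 136 and 136 CPM with AZD4573. Both rose without overlap, by 0.37 (adjusted p = 6.4e-06, edgeR's quasi-likelihood test) and 0.29 (adjusted p = 7.8e-05) on the log2 scale. SNRPA1, of the U2 snRNP, rose by 0.24 (adjusted p = 0.000190). SNRPB2, the close relative of SNRPA in the U2 snRNP, was at 130, 120 and 117 CPM with DMSO and at 115, 115 and 118 CPM with AZD4573, with overlapping groups (log2 fold change -0.07, adjusted p = 0.173). Its counts per 100 of SNRPA went from 105 ± 5.88 to 77.5 ± 3.35 (SD, n = 3).

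The 7 standard Sm proteins were summed to compare the ring as a whole. The sum over SNRPB, SNRPD1, SNRPD2, SNRPD3, SNRPE, SNRPF and SNRPG was 1599, 1476 and 1500 CPM with DMSO and 1601, 1512 and 1595 CPM with AZD4573, so that the groups overlapped. This holds under TMM, and scaled to the mitochondrial mRNAs all 7 were lower, with a median log2 fold change of -0.72. Within the ring, SNRPD1 fell by 0.32 (adjusted p = 2.7e-05, edgeR's quasi-likelihood test), SNRPD2 rose by 0.40 (adjusted p = 2.8e-05), SNRPD3 rose by 0.16 (adjusted p = 0.00374, and 0.239 with library size as the only scaling), and SNRPB, SNRPE, SNRPF and SNRPG did not pass, with log2 fold changes between -0.08 and 0.11. SNRPD1 and SNRPD2 are neighbours in the ring. SNRPD2 stood at 200, 173 and 186 CPM with DMSO and at 258, 229 and 251 CPM with AZD4573, and the AZD4573 libraries were the higher ones throughout. SNRPB, the most abundant of the 51 per length (492 CPM per kb of its canonical transcript with DMSO), stood at 559, 524 and 516 CPM with DMSO and at 530, 533 and 559 CPM with AZD4573. Per length, SNRPD2 (362 CPM per kb) and SF3B5 (252 CPM per kb) came next with DMSO. These ranks depend on the annotated canonical transcript, which has 1082 bases for SNRPB and 4858 bases for SNRPD1.

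SNRPN, the tissue-restricted relative of SNRPB from an imprinted locus, rose while SNRPB did not pass. SNRPN (ENSG00000128739, chr15:24823637-24978723) stood at 63.2, 56.1 and 54.0 CPM with DMSO and at 92.9, 94.3 and 97.3 CPM with AZD4573. The groups were far apart, with a log2 fold change of 0.71 ± 0.0581 (SE, adjusted p = 9.4e-08, edgeR's quasi-likelihood test). Per 100 counts of SNRPB there were 10.8 ± 0.443 of SNRPN with DMSO and 17.5 ± 0.149 with AZD4573 (SD, n = 3). SNRPN shares 1496 of its 3408 merged exon bases with SNURF, SNHG14 and 2 further genes on the same strand, so that the value belongs to the locus rather than to SNRPN alone. Scaled to the mitochondrial mRNAs, its log2 fold change was -0.03 (adjusted p = 0.762).

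In the U6 ring, 2 of 7 genes fell and 3 rose, shares near the background of 37.4% and 37.3%. LSM4 (ENSG00000130520, chr19:18306236-18323112) stood at 123, 106 and 111 CPM with DMSO and at 183, 177 and 193 CPM with AZD4573. LSM3 stood at 69.8, 62.6 and 61.6 CPM with DMSO and at 87.0, 83.6 and 87.0 CPM with AZD4573. Both were higher in every AZD4573 library, by 0.70 (adjusted p = 8.8e-08, edgeR's quasi-likelihood test) and 0.41 (adjusted p = 1.2e-05) on the log2 scale. LSM8 rose by 0.19 (adjusted p = 0.000481), LSM2 fell by 0.32 (adjusted p = 0.000565) and LSM6 by 0.24 (adjusted p = 0.00181). LSM5 and LSM7 did not pass, with 0.04 and 0.10. LSM7 passed only without DMSO replicate 1 (0.15, adjusted p = 0.0283).

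LSM1 and LSM8 decide where an LSm ring works, since LSM8 makes the nuclear ring on U6 and LSM1 the cytoplasmic ring that promotes removal of the mRNA cap. LSM1 (ENSG00000175324) stood at 41.8, 40.1 and 36.2 CPM with DMSO and at 23.7, 24.1 and 25.1 CPM with AZD4573. It fell by 0.70 on the log2 scale (adjusted p = 2.8e-07, edgeR's quasi-likelihood test), although 636 of its 1676 merged exon bases are shared with BAG4 and another gene on the opposite strand. LSM8 stood at 154, 155 and 153 CPM with DMSO and at 176, 172 and 179 CPM with AZD4573. Per 100 counts of LSM8 there were 27.1, 26.0 and 23.8 of LSM1 with DMSO and 13.4, 14.0 and 14.0 with AZD4573. The ratio dropped 1.85-fold, without overlap.

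The U7 snRNP, which cuts the ends of replication-dependent histone pre-mRNAs, carries LSM10 and LSM11 in place of SNRPD1 and SNRPD2, and both of its own proteins fell. LSM11 (ENSG00000155858, chr5:157743712-157760709) stood at 16.1, 16.0 and 15.7 CPM with DMSO and at 6.45, 6.86 and 6.19 CPM with AZD4573. LSM10 (ENSG00000181817, chr1:36391238-36397908) stood at 32.2, 30.1 and 30.7 CPM with DMSO and at 19.2, 15.9 and 17.6 CPM with AZD4573. Neither pair of groups overlapped, and the log2 fold changes were -1.29 (adjusted p = 3.7e-09, edgeR's quasi-likelihood test) and -0.82 (adjusted p = 1.8e-07). Against the Sm proteins that they replace, LSM10 went from 10.6 ± 0.198 to 7.46 ± 0.529 counts per 100 of SNRPD1 and LSM11 from 8.58 ± 0.634 to 2.65 ± 0.294 per 100 of SNRPD2 (SD, n = 3). In the 250 bases printed above, LSM11 has a match to GGGCGG and LSM10 a match to CCAAT, and no searched motif is in both.

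LSM12, an LSm-domain protein outside the spliceosome, had the second largest fall. LSM12 (ENSG00000161654, chr17:44034328-44067619) stood at 132, 122 and 124 CPM with DMSO and at 50.7, 44.8 and 45.4 CPM with AZD4573, clearly lower in all AZD4573 libraries (log2 fold change -1.42 ± 0.0561 SE, adjusted p = 1.4e-10, edgeR's quasi-likelihood test). Its pseudogene LSM12P1, which could share its reads, had 977, 758 and 870 counts with DMSO and 230, 169 and 142 with AZD4573, at most 9.55% of the counts of LSM12. LSM14A and LSM14B, paralogs of the cytoplasmic processing bodies, rose. LSM14A went from 273, 268 and 260 CPM to 298, 300 and 302 CPM, and LSM14B from 44.9, 46.4 and 46.8 CPM to 68.8, 67.5 and 62.7 CPM. Both were higher in each AZD4573 library, by 0.17 (adjusted p = 0.00134) and 0.53 (adjusted p = 5.4e-07) on the log2 scale. With library size as the only scaling LSM14A no longer passed (0.06, adjusted p = 0.111, edgeR).

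**Figure D3:**
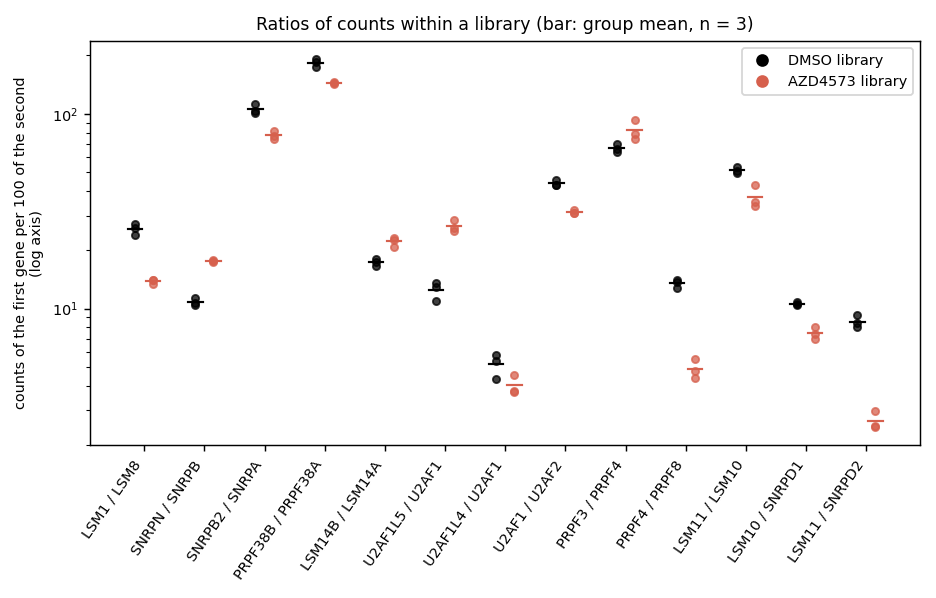
Counts of 1 gene per 100 counts of another within the same library (vertical log axis) for 13 gene pairs, with points for the 3 DMSO and 3 AZD4573 libraries and bars for group means. The groups are apart in every pair but U2AF1L4 over U2AF1, as in LSM1 over LSM8 (25.6 against 13.8) and SNRPN over SNRPB (10.8 against 17.5).

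In all, 13 such within-library ratios were computed, on pairs chosen with the values known. In 12 of them the groups did not overlap, which gives p = 0.10 in a two-sided exact permutation test, the smallest value that 3 libraries against 3 allow (0.108 adjusted over the 13). Because of that choice the separation is a description only, and no share over other gene pairs was computed. U2AF1L4 over U2AF1 overlapped (exact p = 0.20). PRPF3 rose against its partner PRPF4, from 66.6 ± 3.20 to 82.3 ± 9.63 counts per 100 (SD, n = 3), and LSM11 dropped against LSM10, from 51.4 ± 1.69 to 37.3 ± 5.16. These ratios are unaffected by how libraries are scaled to each other.

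The scalings are compared gene by gene in the plot of 4 scalings. Under TMM factors 22 of the 51 genes were lower and 17 higher, and under RLE factors 22 and 18. With library size as the only scaling, 27 were lower and 13 higher. Scaled to the mitochondrial mRNAs, the set moved down, with a median log2 fold change of -0.77 beside -0.71 over all genes tested.

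**Figure D4:**
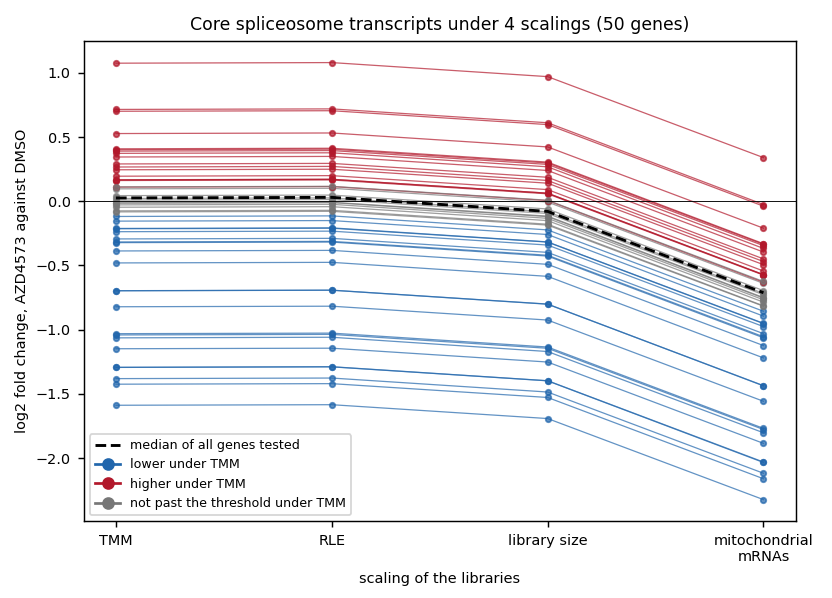
Log2 fold change (vertical axis) of 50 core spliceosome genes under 4 ways of scaling the libraries (horizontal axis), with 1 line per gene coloured by its call under TMM and a dashed line for the median of all genes tested. The lines run nearly parallel, and under the mitochondrial scaling PRPF40B alone stays above 0 (0.34).

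The other proteins of the splicing machinery were examined through a list of 112 genes grouped into 6 sets by their function. All 112 passed the filter on low counts. Of these, 73 fell and 19 rose at an adjusted p under 0.05 (edgeR's quasi-likelihood test, background 37.4% and 37.3%), with a median log2 fold change of -0.38. With a fold change of at least 1.5, 45 fell (40.2%) and 1 rose, ZCRB1, against 23.7% and 22.7% of all genes tested.

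The factors that build Sm rings and carry snRNPs had the largest share of falls of the 6 sets. Of 19 genes in this set, 16 fell and 1 rose (background 37.4% and 37.3%), with a median log2 fold change of -0.95. By at least 1.5-fold, 14 fell (73.7%, background 23.7%). Their summed level went from 1223, 1185 and 1166 CPM with DMSO to 696, 666 and 670 CPM with AZD4573, whereas the sum over the Sm proteins themselves overlapped between groups. GEMIN7, a subunit of the SMN complex, stood at 27.1, 23.1 and 24.1 CPM with DMSO and at 7.49, 6.05 and 5.65 CPM with AZD4573 (log2 fold change -1.96, adjusted p = 1.1e-09, edgeR's quasi-likelihood test). GEMIN2, which holds the ring before it closes, stood at 10.4, 9.83 and 10.3 CPM with DMSO and at 2.95, 2.53 and 2.98 CPM with AZD4573 (log2 fold change -1.85, adjusted p = 2.0e-09). Neither overlapped between groups. PHAX, the export adaptor of newly made snRNAs, had a log2 fold change of -1.84, TGS1, which modifies their cap, -1.72, and PRMT5, which methylates Sm proteins, -1.10. CLNS1A, the chaperone that delivers Sm proteins, was the gene that rose (0.29). SMN1 and SMN2 are near-identical copies whose reads cannot be told apart, and both were lower (-0.79 and -0.76).

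Of 35 proteins of the Prp19 complex and the catalytic stages, 24 fell and 5 rose (background 37.4% and 37.3%, median -0.48). BCAS2, a core subunit of the Prp19 complex, stood at 37.3, 34.9 and 34.4 CPM with DMSO and at 10.0, 8.37 and 9.17 CPM with AZD4573, and CDC5L, another core subunit, had a log2 fold change of -1.28. PRPF19 itself did not pass, as given above. Of 26 snRNP proteins named outside the SNRP, SF3, PRPF and LSM families, 14 fell and 8 rose (53.8% and 30.8%, same background, median -0.13). ARMC7 had the largest fall of the 112, from 15.7, 14.7 and 15.5 CPM to 3.16, 3.05 and 1.83 CPM (log2 fold change -2.52, adjusted p = 3.6e-09, edgeR's quasi-likelihood test), followed by TXNL4B, a relative of the U5 protein TXNL4A, from 15.7 ± 0.848 to 3.48 ± 0.302 CPM (SD, n = 3). TXNL4A itself had a log2 fold change of 0.10 and did not pass.

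Among the U5 and U1 proteins of that group, the helicases SNRNP200 (0.35) and DDX23 (0.48) and the U1 protein SNRNP70 (0.31) rose. The U5 protein SNRNP40 fell by 0.83 on the log2 scale, from 72.0 ± 2.37 to 40.5 ± 3.32 CPM (SD, n = 3), and EFTUD2, the GTPase of U5, fell by 0.22. ZCRB1 and ZMAT5, both proteins of the minor spliceosome, rose by 0.62 and 0.50, and others of the same machine, PDCD7, ZRSR2, SNRNP48 and RNPC3, fell by 1.47, 0.84, 0.75 and 0.61 on the log2 scale. Of 16 branch site and U2-related proteins, 9 fell and 3 rose (background 37.4% and 37.3%), with DNAJC8 at 0.54 as the largest rise. Of 9 exon junction complex proteins, 6 fell and 1 rose (same background). Of 7 helicases, 4 fell and 1 rose (same background). The helicase that rose was the export helicase DDX39B (from 305 ± 16.6 to 447 ± 13.5 CPM, SD, n = 3).

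**Figure D5:**
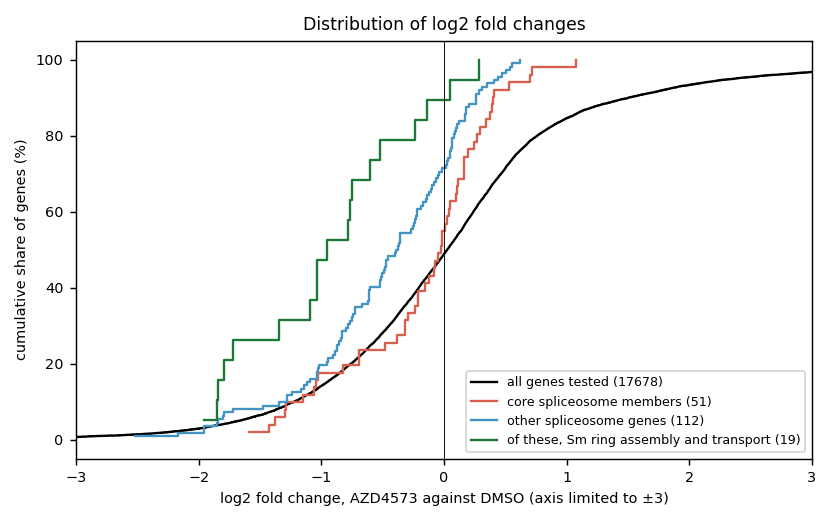
Cumulative share of genes (vertical axis, %) by log2 fold change (horizontal axis, limited to ±3) for all 17678 genes tested, the 51 core spliceosome genes, the 112 other spliceosome genes and the 19 of these that assemble and carry snRNPs. The curve of the 51 genes crosses 50% near that of all genes (medians -0.03 and 0.03), and that of the 19 assembly genes lies to the left (median -0.95).

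The 51 genes lie on 21 chromosomes, with spans from 690 to 155087 bases. Over these genes, Spearman's rho between log2 fold change and genomic span was 0.04, and with the number of exons of the canonical transcript -0.03, given as a description because genes are not independent replicates. Over 17638 genes tested with a GENCODE entry, the values were -0.10 and -0.07. The transcripts that fell had a median canonical length of 2663 bases and those that rose 1704 bases, beside 1696 bases for those without a call and 2669 bases for all genes tested, with rho at -0.18 over the 51 genes and -0.15 over all. The starting level gave a rho of 0.003 between mean CPM with DMSO and log2 fold change over the 51 genes, beside -0.33 over all genes tested. The level with DMSO is itself part of the fold change. Among all genes, some barely detected with DMSO can pass the filter through the AZD4573 libraries alone, so these values are not directly comparable.

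RSEM ignores strand by default, and the study's supplementary methods name default parameters for it. Of the 51 genes, 20 share exon bases with another annotated gene. Among the 31 genes that share none, 15 fell and 9 rose (48.4% and 29.0%, background 37.4% and 37.3%), an alternative chosen after the values were seen. Of 16 genes with a pseudogene named after them, LSM12 and SNRPE were the ones whose pseudogenes reached more than 1% of their counts in a library. Of the 4 hyphenated transcripts set aside, all transcribed divergently from these promoters, SNRPA1-DT had 14, 3 and 0 counts with DMSO and 29, 63 and 66 with AZD4573, and the others had at most 2 counts in a library.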

How the data were processed

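RNA of 6 H9 libraries (3 DMSO, 3 AZD4573, grouped by the sample labels) was sequenced by the authors. Per the submitters' processing notes, cutadapt 2.3, STAR 2.7.8a and RSEM 1.3.3 were used with GRCh38. The deposited values are expected counts per gene from RSEM, not normalized, with totals from 52101868 to 76571157. The labels describe poly(A) selection and the study's supplementary methods rRNA depletion, which could change the level of RNAs without a poly(A) tail. Rounded counts were tested with edgeR 4.0.16 (R 4.3.3; TMM factors, filterByExpr with a minimum count of 10, quasi-likelihood F-test, Benjamini-Hochberg over 17678 genes), at an adjusted p under 0.05 and, separately, with a fold change of at least 1.5. Standard errors were derived from that test, as the absolute log2 fold change divided by the square root of F. CPM values used TMM-normalized library sizes, and within-library ratios used counts. All gene IDs were looked up in GENCODE 44, where 61369 of 61541 matched. Promoters came from RefSeq on GRCh38.p14. Alternatives were RLE factors, library size only, scaling to 13 mitochondrial mRNAs, no filter, at least 10 counts in every library, DESeq2 1.42.0, a replicate block and leaving out each library. The fitting script was tested on simulated data. The 5 reporter entries held 0 counts and were left out. The genes and lists were chosen with earlier results of these data known. The genes were described by role, those past 1.5-fold in full, and of the other spliceosome genes the 5 largest falls and rises were named, with further genes named after their values were seen. The values of 1 gene are not reported here.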

Additional observations from a re-analysis of the deposited data

How the results depend on the processing

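Scaling to the mitochondrial mRNAs changed the most: 48 core spliceosome genes were lower and 1 higher, 35 and 0 past 1.5-fold, with a median log2 fold change of -0.77. Of the other spliceosome genes 111 were lower and 0 higher, and of all genes 11878 and 2144. Under it the log2 fold changes turned negative for LSM14A (-0.57), LSM14B (-0.21), LSM5 (-0.70), LSM7 (-0.64), LSM8 (-0.54), LSM3 (-0.33), LSM4 (-0.0383), SF3B6 (-0.57), SF3A2 (-0.47), SF3B1 (-0.40), SNRPB (-0.72), SNRPF (-0.62), SNRPD3 (-0.58), SNRPD2 (-0.34), SNRPN (-0.0254), SNRPA1 (-0.49), SNRPC (-0.45), SNRPA (-0.37), U2AF1L5 (-0.35), PRPF31 (-0.73), PRPF6 (-0.63), DDX23 (-0.26), ZMAT5 (-0.24), DNAJC8 (-0.20), DDX39B (-0.19) and ZCRB1 (-0.13). This follows from the scaling itself, which shifted the median of all genes by -0.74. With library size only the median was -0.13, and LSM5 (-0.0601), LSM7 (-0.0062), SNRPB (-0.0824) and PRPF31 (-0.10) changed sign. Under it LSM14A, SF3B6, SNRPD3 (0.06, adjusted p = 0.239, edgeR) and PRPF6 (0.0056, adjusted p = 0.898) lost their calls, and SF3B4, SF3B2, SNRPG, SNRPB2 and PRPF19 passed as lower. Without the filter on low counts SF3B6 (0.12, adjusted p = 0.0812, edgeR) and PRPF6 (0.07, adjusted p = 0.314) lost their calls, and 15 genes were higher. The median relative to all genes was then -0.18, and SNRPB (-0.0208) and PRPF31 (-0.0329) changed sign. With at least 10 counts in every library, SF3B4 (0.009), SF3B2 (0.0224) and SNRPE (0.0249) did, and PRPF8 lost its call (adjusted p = 0.0994, edgeR). Genes without shared exon bases gave 15 lower and 9 higher (48.4% and 29.0%, beside 37.4% and 37.3% of all genes tested).

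Leaving out 1 library gave 21 to 23 lower and 15 to 18 higher core spliceosome genes, and 12 and 3 past 1.5-fold each time. Changes of sign were limited to LSM5 (-0.0142 to 0.0791), SF3B2 (-0.0564 to 0.0033), SNRPE (-0.0608 to 0.0437), SNRPB (-0.013 to 0.0466) and PRPF31 (-0.0189 to 0.022), none of which passed. SNRPG passed as lower without AZD4573 replicate 1 (-0.16, adjusted p = 0.0453, edgeR). Of 50 genes, 34 kept direction and call in every alternative but the mitochondrial scaling. The replicate numbers did not pair the samples (correlations of -0.02, 0.04 and 0.03). With the replicate block 22 were lower and 18 higher, and SNRPF gained a call (adjusted p = 0.0462, edgeR). SNRPF also passed with RLE factors, with DESeq2, with at least 10 counts in every library and without AZD4573 replicate 2 (adjusted p from 0.0122 to 0.0444). DESeq2 also gave 22 and 18. At 3 libraries a group, and without added standards, a change of total mRNA per cell cannot be measured.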
